A study of Canis lupus familiaris with 21 samples.

Results

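The 10 genes described here, grouped as late activity-induced secreted and scaffold genes, were followed in prefrontal cortex and in plasma extracellular vesicles (EVs, membrane-bound particles that cells release into the blood) of companion dogs. The grouping is a label, and not every member is equally known for induction by neuronal activity. They are INHBA, BDNF, NRN1, NPTX1, NPTX2, NPTXR, HOMER1, VGF, SCG2 and PTGS2, picked by symbol out of 34981 genes in each tissue's table. All 10 symbols were found in both tables, and all 10 had a mean normalised count of at least 10, the level needed to enter the fits, among 19010 genes in cortex and 31728 in EVs. INHBA, NPTX2 and HOMER1 were among those picked because their cortex values stood out. The cortex values of all 10 are therefore given as a description. Their counts past a threshold in cortex stand only beside the share of all genes, and nothing is read from them; EV values are tested.

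The groups were young dogs, old dogs, and dogs with CCD (canine cognitive dysfunction), a dementia-like syndrome of ageing dogs. The labels give no ages in years, no breed, sex or drug, and no genetic change in any group. Cortex gave 9 libraries of polyadenylated RNA, 3 per group, named cortex_270, cortex_353 and cortex_377 (young), cortex_250, cortex_253 and cortex_264 (old), and cortex_163, cortex_354 and cortex_358 (CCD). EVs gave 12 libraries of total RNA depleted of ribosomal RNA, 4 per group, with the same 9 numbers (EV_270 and so on) and the further libraries EV_502 (young), EV_519 (old) and EV_523 (CCD). Whether every number stands for its own dog is not stated, so the tests measure the spread between these libraries. Values of a group are always listed below in the order of library numbers given here.

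Neuronal firing first turns on transcription factors such as FOS and EGR1, and these turn on a later set of effector genes, many of which act outside the cell. INHBA encodes the subunit that pairs with itself to form activin A, a secreted ligand of the TGF-beta family. BDNF is the neurotrophin that signals through NTRK2, and NRN1 (neuritin) is a membrane-anchored protein that promotes neurite and synapse growth. NPTX1, NPTX2 (also called NARP) and the membrane-bound NPTXR form neuronal pentraxin complexes that gather AMPA-type glutamate receptors at excitatory synapses, in cortex above all on parvalbumin interneurons. HOMER1 is a postsynaptic scaffold that links metabotropic glutamate receptors to SHANK proteins, and neuronal activity raises its short form, Homer1a, which breaks up the scaffold in rodents. VGF and SCG2 are granin-type proteins of dense-core vesicles, cut into secreted peptides, and PTGS2 (COX-2) makes prostaglandin precursors in excitatory neurons and, in inflammation, in many other cells.

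Cortex libraries held 14.9 to 31.4 M reads (M for 1e6), with the CCD libraries the shallowest (14.9 to 18.9 M). EV libraries held 27.5 to 45.0 M reads, of which 74.9% to 84.2% lay on transposable element families rather than genes. The summed level of the 13 meningeal and fibroblast markers was 25411 to 50451 normalised counts in cortex_353, cortex_377 and cortex_358, and 685 to 2518 in the other 6 cortex libraries. The summed level of 9 general neuron markers was 147481 to 237094 in cortex. In EVs the same 9 markers summed to 1379 to 2257 and 9 platelet markers to 975 to 1811. Of the EV genes 90.5% had reads in all 12 libraries, against 53.9% in all 9 of cortex, and genes with a longer genomic span had higher EV levels (Spearman's rho 0.41 across 30292 genes, and 0.22 across 18406 genes in cortex; genes are not independent replicates).

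In cortex, 2 of the 10 genes, INHBA and NPTX2, separated young from aged libraries, old and CCD alike. A different set, HOMER1, BDNF, NPTX1 and NPTXR, lay lower in every CCD library than in every old library. INHBA alone went the other way, higher in CCD than in old. CCD had the lowest mean of the 3 groups for the 9 other genes. Of all tested genes, 5.65% lay lower without overlap in old than in young, and 8.22% in CCD than in young. For CCD against old 22.6% of all tested genes lay lower without overlap and 11.9% higher.

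**Figure D1:**
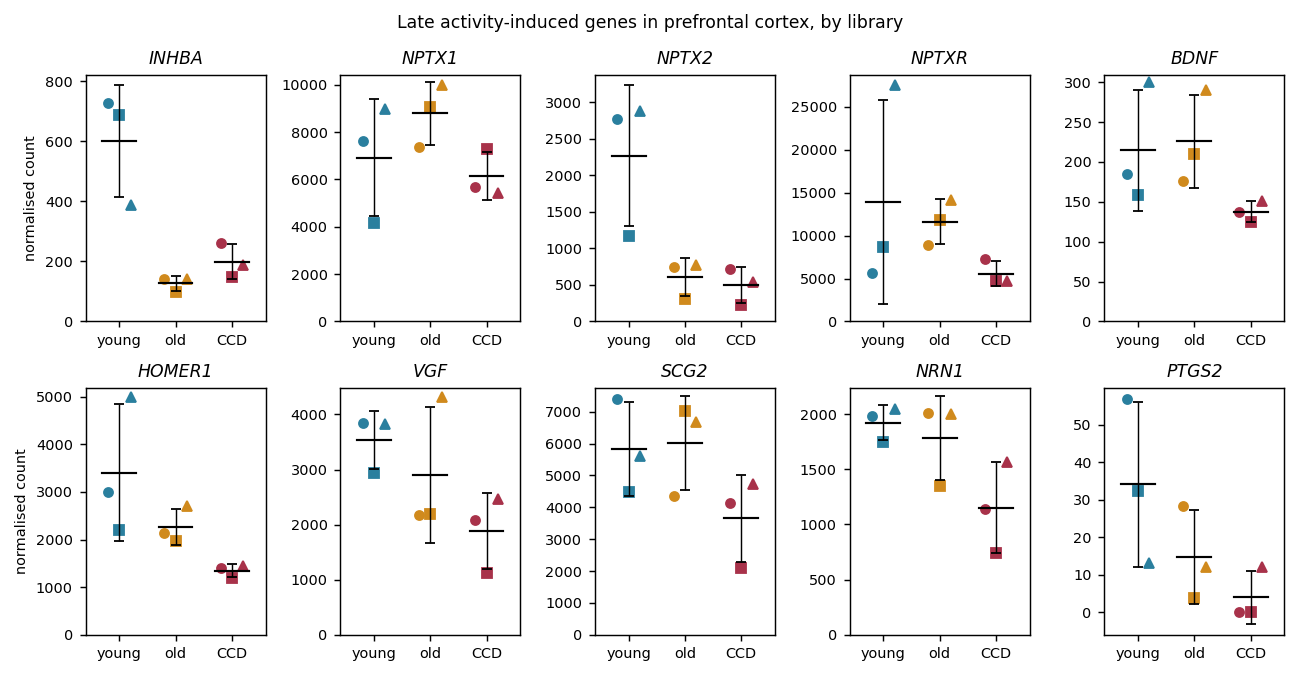
Normalised counts of the 10 genes in prefrontal cortex, 1 panel per gene with its own axis, 1 point per library (in each group circle, square and triangle are the libraries in order of number), with the mean and SD of 3 libraries. INHBA (386 to 727 in young, at most 262 elsewhere) and NPTX2 (1167 to 2881 in young, at most 779 elsewhere) are high in young libraries, and HOMER1, BDNF, NPTX1 and NPTXR are lower in every CCD than in every old library. Of all tested genes 22.6% are likewise lower in every CCD than in every old library.

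Among the secreted ligands, INHBA had 727, 688 and 386 normalised counts in young. It had 142, 98.1 and 140 in old, and 262, 146 and 188 in CCD. The 3 groups did not overlap anywhere, in the order old, CCD, young, although the lowest CCD library lay just above the highest old one. Its log2 fold change was -2.20 ± 0.33 (limma SE) for old against young, 0.63 ± 0.33 for CCD against old (0.41 without cortex_163) and -1.58 ± 0.33 for CCD against young. The highest INHBA value was in cortex_270, the library with the lowest meningeal marker sum (685). Without cortex_353, cortex_377 and cortex_358 the change for old against young was -2.53. That fit leaves cortex_270, the highest library for INHBA, as the only young library. The part of meningeal RNA in the INHBA values was not tested. INHBB, the beta subunit of activin B, did not share the pattern: it had 88.7 ± 34.3 normalised counts in young, 119 ± 29.5 in old and 100 ± 16.4 in CCD (SD, n = 3).

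BDNF had 185, 158 and 301 normalised counts in young, and 176, 210 and 290 in old. In CCD it had 137, 125 and 151. Young and old overlapped, and all CCD libraries lay below all of both groups. For BDNF the log2 fold change was -0.68 ± 0.32 for CCD against old, -0.59 ± 0.32 for CCD against young (-0.32 without cortex_377) and 0.10 ± 0.32 for old against young. BDNF is transcribed from several promoters, which a count per gene does not separate.

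NRN1 had 1979, 1744 and 2048 in young, 2011, 1345 and 2000 in old, and 1136, 745 and 1569 in CCD. CCD overlapped old through cortex_358 and cortex_253 and lay below all young libraries, with a log2 fold change of -0.68 ± 0.27 against old and -0.80 ± 0.27 against young, or -0.39 and -0.52 without cortex_354. Old and young differed by -0.13 ± 0.27.

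The 3 pentraxins had different patterns. NPTX2, known as a strongly activity-induced gene, had 2771, 1167 and 2881 normalised counts in young. It had 748, 303 and 779 in old, and 713, 228 and 540 in CCD. All young libraries lay above all aged ones, while old and CCD overlapped. For NPTX2 the log2 fold change was -1.91 ± 0.51 for old against young, -2.24 ± 0.51 for CCD against young and -0.33 ± 0.51 for CCD against old, the last turning to 0.15 without cortex_354.

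NPTX1, its close relative with a steadier level in neurons, had 7621, 4163 and 8972 normalised counts in young. In old it had 7368, 9056 and 9990, and in CCD it had 5685, 7302 and 5445. The highest CCD and the lowest old library nearly touched, and young spanned both groups. Its log2 fold change was -0.52 ± 0.28 for CCD against old, 0.41 ± 0.28 for old against young (0.08 without cortex_353) and -0.11 ± 0.28 for CCD against young (0.11 without cortex_377).

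Within a library, the NPTX2 count was 36.4%, 28.0% and 32.1% of the NPTX1 count in the 3 young libraries. It was 3.34% to 10.1% in old and 3.13% to 12.5% in CCD. This ratio does not depend on how libraries are scaled, and its size has no meaning beyond the comparison of libraries because transcript lengths were not accounted for. Young did not overlap the aged groups, and old and CCD overlapped.

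NPTXR, the transmembrane pentraxin, had 5637, 8616 and 27488 normalised counts in young. It had 8848, 11864 and 14119 in old, and 7272, 4763 and 4703 in CCD. All CCD libraries lay below all old ones, and cortex_377 stood far above every other library. The log2 fold change was -1.06 ± 0.48 for CCD against old, and 0.05 ± 0.48 for old against young, which was 0.71 without cortex_377 and -0.43 without cortex_270. For CCD against young it was -1.01 ± 0.48, and -0.35 without cortex_377. Without cortex_353, cortex_377 and cortex_358, which leaves cortex_270 as the only young library, the change for CCD against young was 0.06.

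**Figure D2:**
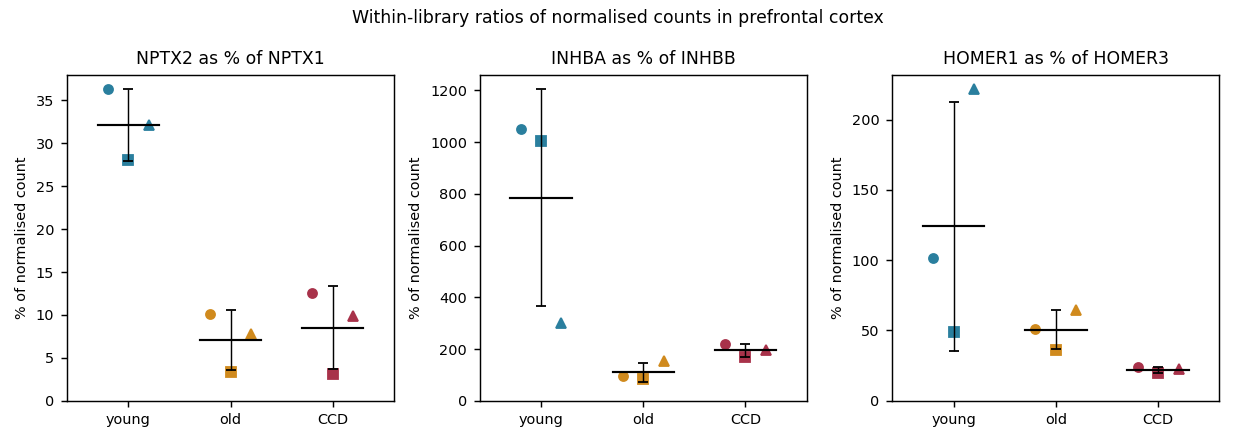
Within-library ratios of normalised counts in cortex as percent, 1 point per library (circle, square and triangle as libraries in order of number), with the mean and SD of 3 libraries per group. NPTX2 is 28.0% to 36.4% of NPTX1 in young libraries and at most 12.5% in aged ones, and HOMER1 is 19.4% to 23.7% of HOMER3 in CCD and 36.4% or more in the other groups. HOMER3 itself is highest in CCD. As a percent of RBFOX3 (not drawn), HOMER1 overlaps between CCD and old, with means of 61.0% and 52.7%.

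The scaffold gene HOMER1 had 3004, 2208 and 4995 normalised counts in young. It had 2132, 1962 and 2698 in old, and 1392, 1186 and 1448 in CCD. All CCD libraries lay below all others, with a narrow spread (SD 10.3% of the mean), and old overlapped young. The log2 fold change was -0.75 ± 0.28 for CCD against old, -1.26 ± 0.28 for CCD against young and -0.52 ± 0.28 for old against young, the last at -0.20 without cortex_377 and -0.79 without cortex_353. The count covers the whole gene, so the short activity-induced form and the long form are not told apart. HOMER3, a relative that is not known for such induction, was highest in CCD, with 2252 to 4522 normalised counts in young, 4192 to 5396 in old and 5873 to 6486 in CCD. HOMER1 was 57.0% to 68.8% of RBFOX3, a general neuron marker, in CCD and 48.1% to 58.6% in old. In young it was 71.8% to 122%. RBFOX3 itself had 2023 to 2539 normalised counts in CCD, 3827 to 4605 in old and 3074 to 4106 in young. Of the 9 general neuron markers 6 were negative for CCD against old and 3 positive.

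Of the dense-core vesicle proteins, VGF had 3852, 2928 and 3826 normalised counts in young. It had 2177, 2188 and 4322 in old, and 2077, 1116 and 2463 in CCD. CCD lay below all young libraries and overlapped old. The log2 fold change was -0.62 ± 0.34 for CCD against old (-0.28 without cortex_354 and -0.29 without cortex_264), -0.97 ± 0.34 for CCD against young (-0.63 without cortex_354) and -0.36 ± 0.34 for old against young. SCG2 had 7401, 4466 and 5600 in young, 4339, 7024 and 6687 in old, and 4128, 2098 and 4726 in CCD. The groups overlapped in every comparison, and the log2 fold change was -0.77 ± 0.32 for CCD against old (-0.41 without cortex_354), -0.73 ± 0.32 for CCD against young (-0.37 without cortex_354) and 0.05 ± 0.32 for old against young.

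PTGS2 was close to the limit of counting. It had 55, 32 and 18 reads in young, 34, 4 and 14 in old, and 0, 0 and 10 in CCD. In normalised counts that was 56.9, 32.2 and 13.2, then 28.4, 3.81 and 11.99, then 0, 0 and 12.2. A count of 0 allows up to 3 reads, or 3.78 normalised counts in cortex_163 and 4.63 in cortex_354. CCD lay below young with almost no gap between cortex_358 (CCD) and cortex_377 (young). Its log2 fold change was -3.67 ± 1.14 with a pseudocount of 1 and -2.20 with a pseudocount of 5, so the size of the difference is not fixed by these counts.

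Over the 10 genes, 1 was higher and 4 lower in CCD than in old cortex with no overlap, beside 11.9% and 22.6% of all tested genes. For old against young 2 were lower and 0 higher without overlap, beside 5.65% and 6.56% of all genes. For CCD against young 7 were lower and 0 higher, beside 8.22% and 5.28%. Since cortex values chose genes of the set, these counts describe it and support nothing. Without cortex_358 the count for CCD against old was 9 of the 10, beside 49.2% of all genes. At a limma adjusted p under 0.05, 0 of the 10 and 0% of all tested genes were called in each cortex comparison, while 14.8%, 6.74% and 12.9% of all genes had an unadjusted p under 0.05 in CCD against old, old against young and CCD against young. With DESeq2 0, 2 and 3 of the 10 were past the threshold in the same order, beside 0.842%, 1.14% and 1.09% of all genes, and with limma on CCD and old alone 2, beside 9.35%. The values behind these counts are those that chose the genes, so the counts are no evidence about them. The median log2 fold change of the 10 was -0.68, -0.24 and -0.99 for CCD against old, old against young and CCD against young, beside -0.10, 0.03 and -0.09 over all tested genes. In the same order 9, 6 and 10 of the 10 were negative, beside 57.1%, 46.1% and 57.1% of all tested genes. CCD against old and CCD against young share the CCD libraries.

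Libraries differed in more than group. The library cortex_354 held the lowest value of 6 of the 10 genes and cortex_377 the highest of 5. The former was also the shallowest library and had the highest summed level of 6 oligodendrocyte markers (629941 normalised counts, against 34612 to 362193 in the other 8). The library cortex_377 had the lowest such sum and the highest summed level of 12 excitatory neuron markers (113651). That excitatory sum was 41456 to 56711 in CCD, 72451 to 96285 in old and 48361 to 113651 in young, so it separated CCD from old as HOMER1, BDNF, NPTX1 and NPTXR did, but did not separate young from aged as INHBA and NPTX2 did. Microglia and macrophage markers (10 of 10 measured) summed to 3797 to 4859 in young, 1956 to 2295 in old and 2419 to 3702 in CCD, without overlap and in the order of INHBA. The sum of astrocyte markers (8 of 8 measured) had the same order, with 116418 to 119716 in young, 72627 to 92009 in old and 99156 to 99948 in CCD. Single astrocyte markers did not all follow it. For old against young 2 of 8 were positive, and for CCD against old 2 of 8 were negative, among them SOX9 at -1.25 ± 0.35. The part of these markers and of depth in the results was not tested. In bulk tissue, fewer cells of a type and less RNA per cell cannot be told apart.

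**Figure D3:**
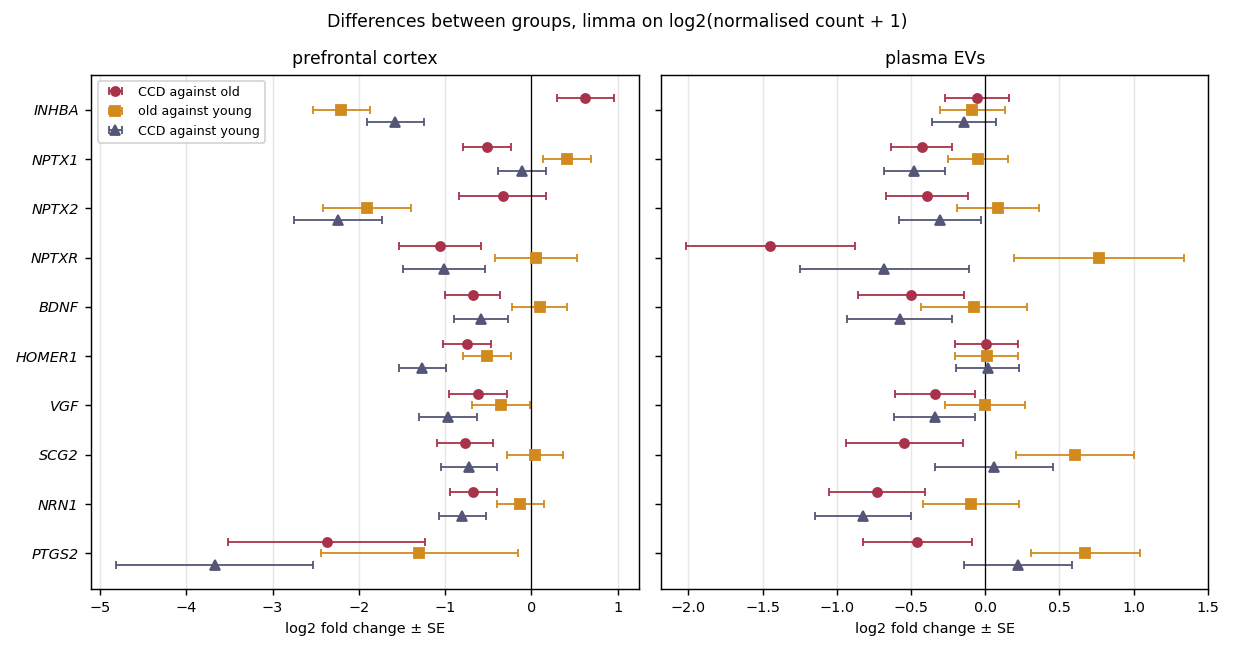
Log2 fold change with its standard error (limma on log2 of the normalised count plus 1) for each gene in 3 comparisons, cortex on the left (3 libraries per group) and EVs on the right (4 per group), with different horizontal scales. In cortex INHBA and NPTX2 are near -2 for old against young, and the other genes run from -1.30 (PTGS2) to 0.41 (NPTX1). In EVs the NPTXR and NRN1 values for CCD are the farthest below 0.

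Across the 9 cortex libraries, 41 of the 45 pairs of genes had a positive Pearson's r of log2 levels, with a median of 0.55. These r values describe libraries that share group and depth differences. NPTX2 went with INHBA (0.79) and HOMER1 (0.82), BDNF with NPTXR (0.87) and HOMER1 (0.85), and NRN1 with VGF (0.88). INHBA and NPTX1 were the most opposed pair (-0.46), and NPTX1 and NPTX2 were almost unrelated (0.02).

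**Figure D4:**
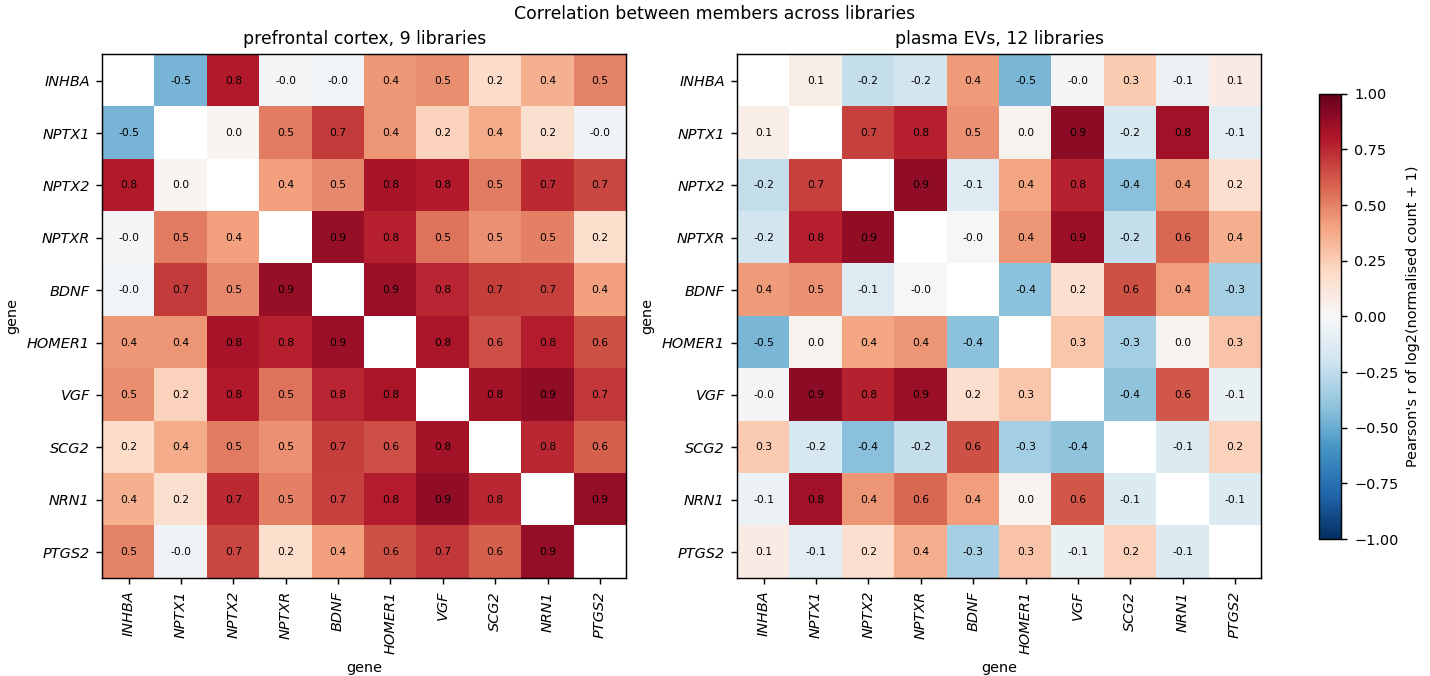
Pearson's r between log2 levels of each pair of genes across 9 cortex libraries (left) and 12 EV libraries (right), red for positive and blue for negative. Most cortex pairs are positive (41 of 45), and in EVs the strongest values lie among NPTX1, NPTX2, NPTXR, VGF and NRN1.

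Symbols that begin with LOC were left out of the search for genes of similar level. Each r below is among the highest over many genes in 9 libraries, so it is a description. Of the remaining tested genes, those whose cortex levels were most like INHBA over the 9 libraries were GEM (r = 0.95), a small GTPase-like protein that restrains calcium channels, BVES (0.95) and CSF2RB (0.92), the shared receptor chain for GM-CSF and related cytokines. Nearest to NPTX2 were MYO10 (0.98), an unconventional myosin of filopodia, PMEPA1 (0.96), a gene induced by TGF-beta that restrains its signalling, and EGR2 (0.95), an activity-induced transcription factor. EGR2 had a mean of 840 normalised counts in young, 123 in old and 126 in CCD. Nearest to HOMER1 were LIN7A (0.99), a synaptic scaffold, RAB30 (0.98) and NRIP1 (0.98), a nuclear receptor corepressor. LIN7A had means of 406, 250 and 115 in young, old and CCD.

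The genes around the 10 in their pathways were read from lists. Of all tested cortex genes 57.1% were negative for CCD against old, 46.1% for old against young and 57.1% for CCD against young. The medians over all tested genes were -0.10, 0.03 and -0.09, and the counts of the cortex lists are to be read beside these. The 14 activity-induced transcription factors, which act before this set, were negative in 13 of 14 for old against young (median log2 fold change -1.23) and for CCD against young (-1.18), and in 9 of 14 for CCD against old (-0.14). With limma 0 of the 14 passed an adjusted p under 0.05. EGR2 was at -2.88 ± 0.95 and FOS at -2.43 ± 0.83 for old against young, and NPAS4, the neuron-specific activity factor, at -2.13 ± 0.52 for CCD against young. Of 20 other late activity genes 18 were negative for old against young (median -0.17), 12 for CCD against old (-0.12) and 19 for CCD against young (-0.40), and 0 passed. PCSK1, the convertase that cuts prohormones, had 401 to 691 normalised counts in CCD, 1089 to 1608 in old and 775 to 2137 in young. Its log2 fold change for CCD against old was -1.12 ± 0.37.

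The activin list was negative in 13 of 15 genes for CCD against old (median -0.29), and 0 passed. It was negative in 13 for CCD against young (-0.40) and in 10 for old against young (-0.19). ACVR1B, the type I receptor of activin, had 1258 to 1522 normalised counts in CCD, 2041 to 2308 in old and 1198 to 1938 in young. The CCD values thus lay within the young range. For CCD against old its log2 fold change was -0.68 ± 0.20 (limma adjusted p = 0.290). FST (follistatin), which binds and blocks activin, had 44.0 to 212 in young and 17.5 to 36.8 in old (-2.17 ± 0.83). Of 7 measured neurotrophin genes 5 were negative for CCD against old (median -0.33) and 0 passed, with the sorting receptors SORL1 at -0.72 ± 0.26 and SORT1 at -0.60 ± 0.26.

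HOMER partners were negative in 9 of 11 for CCD against old, with a median of -1.02, and 0 passed. They were negative in 9 for CCD against young (-0.94) and positive in 9 for old against young (0.20). DLGAP1, a SHANK partner, had 273 to 559 normalised counts in CCD, 1293 to 2417 in old and 547 to 4543 in young. Its log2 fold change for CCD against old was -2.12 ± 0.68. Granin and prohormone-processing genes were negative in 10 of 11 for CCD against old (median -0.47), and 0 passed. For CCD against young 7 of 11 were negative (-0.14), while 9 were positive for old against young (0.35). PCSK2 had 1705 to 2712 in CCD, 4255 to 5027 in old and 2119 to 5769 in young. Its log2 fold change for CCD against old was -1.11 ± 0.33, and that of CADPS2 was -1.16 ± 0.40. For CCD against old, pentraxin partners at AMPA synapses were evenly split at 5 and 5 (median -0.11), with the AMPA receptor subunit GRIA2 at -0.85 ± 0.33. In the same comparison 8 of 12 prostaglandin genes were positive (0.11). Neither list had a gene that passed.

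In plasma EVs the groups of the 10 genes overlapped almost everywhere, also for INHBA, NPTX2 and HOMER1. The lower side of CCD held NPTXR and NRN1 against old, and NPTX1 and NRN1 against young, none past the threshold. Over all tested genes the median log2 fold change was -0.27 for CCD against old, 0.09 for old against young and -0.17 for CCD against young, so changes are given also relative to it. The 2 tables were normalised separately, and no level is compared between the tissues.

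**Figure D5:**
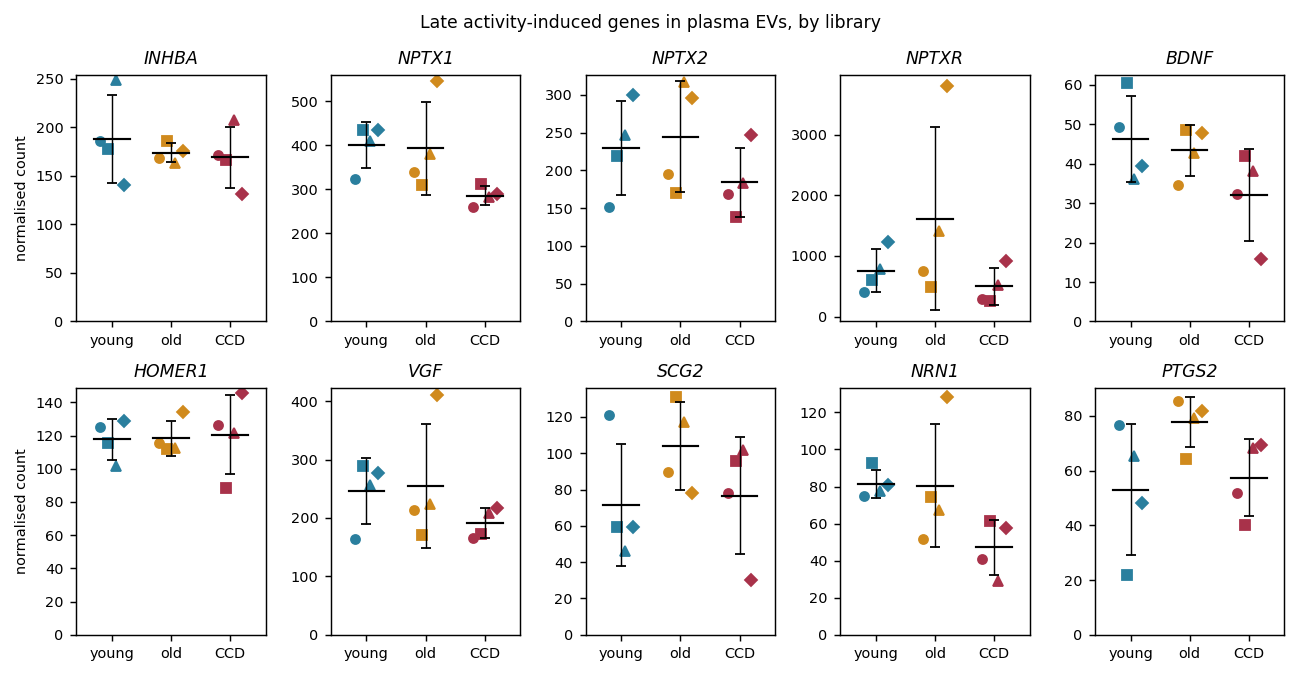
Normalised counts of the 10 genes in plasma EVs, 1 panel per gene with its own axis, 1 point per library (circle, square, triangle and diamond as libraries in order of number), with the mean and SD of 4 libraries per group. INHBA (131 to 248 over all 12 libraries) and HOMER1 (88.5 to 146) show no separation of groups, NRN1 and NPTX1 are lower in every CCD than in every young library, and EV_519 stands high for NPTXR at 3807.

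INHBA had 186, 177, 248 and 140 normalised counts in young EVs. It had 169, 186, 164 and 176 in old, and 171, 166, 207 and 131 in CCD. The groups shared their range. The log2 fold change was -0.09 ± 0.22 for old against young (95% interval -0.55 to 0.38; -0.17 relative to all genes) and -0.06 ± 0.22 for CCD against old (-0.52 to 0.41; limma adjusted p = 0.946). Relative to all genes the latter was 0.22, and its sign changed with the scaling.

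HOMER1 had 125, 116, 101 and 129 normalised counts in young EVs, 116, 112, 112 and 134 in old and 126, 88.5, 121 and 146 in CCD, in the same order of libraries. The 3 groups coincided. The change was 0.007 ± 0.21 for CCD against old (95% interval -0.45 to 0.46; limma adjusted p = 0.994) and 0.28 relative to all genes. NPTX2 had 152, 218, 247 and 300 in young, 196, 169, 317 and 296 in old and 168, 138, 184 and 247 in CCD. Its groups overlapped, at 0.09 ± 0.28 for old against young (interval -0.51 to 0.68; -0.003 relative to all genes) and -0.39 ± 0.28 for CCD against old (-0.98 to 0.20; -0.12 relative to all genes; limma adjusted p = 0.780).

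NPTXR varied most, with 404, 609, 778 and 1229 normalised counts in young EVs, 751, 489, 1415 and 3807 in old and 287, 257, 522 and 923 in CCD. EV_519 was the highest of all 12, and CCD overlapped both other groups. The log2 fold change for CCD against old was -1.45 ± 0.57 (95% interval -2.67 to -0.22), or -1.17 relative to all genes, and it did not pass (limma adjusted p = 0.777). Without EV_519 it was -0.89. For CCD against young it was -0.68 ± 0.57, or -0.51 relative to all genes, and between -1.04 and -0.41 with single libraries left out.

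NRN1 had 75.1, 92.5, 77.8 and 80.6 normalised counts in young EVs and 51.9, 74.5, 67.1 and 128 in old. In CCD it had 41.1, 61.1, 29.3 and 57.7, below all young libraries and overlapping old through EV_250. Its change was -0.82 ± 0.32 against young (95% interval -1.52 to -0.13; -0.66 relative to all genes) and -0.73 ± 0.32 against old (-1.42 to -0.04; -0.46 relative to all genes, and -0.48 without EV_519), and neither passed (limma adjusted p = 0.777 against old).

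NPTX1 had 323, 434, 409 and 436 in young EVs, 338, 311, 380 and 546 in old, and 261, 312, 282 and 289 in CCD. CCD lay below all young libraries and overlapped old through EV_354 and EV_253. The change was -0.48 ± 0.20 against young (95% interval -0.91 to -0.04; -0.31 relative to all genes) and -0.43 ± 0.20 against old (-0.86 to 0.01; -0.16 relative to all genes), not passing (limma adjusted p = 0.777 against old).

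The remaining genes overlapped between all groups. BDNF ranged from 15.7 in EV_523 to 60.4 in EV_353, with -0.50 ± 0.35 for CCD against old (-0.23 relative to all genes, and -0.20 without EV_523). VGF ranged from 163.5 in EV_270 to 410 in EV_519, with -0.34 ± 0.27 in that comparison (-0.07 relative to all genes, and -0.08 without EV_519). SCG2 ranged from 30.4 in EV_523 to 131 in EV_253, with -0.54 ± 0.40 (-0.27 relative to all genes, and -0.15 without EV_523). PTGS2, which is also expressed by activated monocytes, ranged from 21.8 in EV_353 to 85.4 in EV_250, with -0.46 ± 0.36 for CCD against old (-0.18 relative to all genes) and 0.68 ± 0.36 for old against young (0.59 relative to all genes, and 0.31 without EV_353).

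In CCD against old EVs 0 of the 10 genes passed an adjusted p under 0.05 with limma, beside 0% of all tested genes, and likewise in the other EV comparisons. DESeq2 and edgeR called 0 of the 10 as well, where DESeq2 called 0.00315% of all genes for CCD against young. At an unadjusted limma p under 0.05, 2 of the 10 (NPTXR and NRN1) were lower in CCD than in old, beside 5.34% of all genes, and 2 (NPTX1 and NRN1) were lower in CCD than in young, beside 2.71%. In either direction the shares of all genes were 5.98% and 2.85%. For old against young the number was 0, beside 1.24% in either direction. Groups did not overlap for 0 of the 10 in CCD against old, beside 5.08% of genes lower and 0.845% higher, for 0 in old against young, beside 0.403% and 0.514%, and for 2 in CCD against young, both lower, beside 2.59% of genes lower and 0.126% higher. The median change of the 10 was -0.44, 0.005 and -0.32 in CCD against old, old against young and CCD against young, with 9, 5 and 7 negative, where 80.0%, 36.8% and 72.2% of all genes were negative.

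Across the 12 EV libraries 27 of 45 gene pairs had a positive Pearson's r, with a median of 0.17. The strongest were NPTX1 with VGF (0.89), NPTX2 with NPTXR (0.88), NPTXR with VGF (0.86) and NPTX1 with NRN1 (0.84). INHBA and HOMER1, which had 0.43 in cortex, had -0.46 in EVs. All 10 pairs among NPTX1, NPTX2, NPTXR, VGF and NRN1, a group chosen after seeing these values, were positive (0.44 to 0.89), and EV_519 was the highest library for 4 of these 5 genes. Nearest to NPTX2 among the tested EV genes, again without LOC symbols, were RASD2 (0.97) and ENTPD2 (0.96). Nearest to INHBA was EIF2AK4 (0.88) and nearest to HOMER1 VPS36 (0.90).

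The pathway lists had 0 passing genes in EVs with limma. For CCD against old 14 of 14 activity-induced transcription factors were negative with a median of -0.27, beside -0.27 over all genes, and 12 of 15 activin genes were (-0.17). Of all tested EV genes 80.0% were negative there. In that comparison SORCS3, a sorting receptor, was at -0.71 ± 0.21, RGS2 at -0.90 ± 0.35, GRIA4 at -0.54 ± 0.18 and C1QC, a complement chain, at -0.80 ± 0.32 (limma adjusted p = 0.777 for each). Neutrophil and monocyte markers (10 of 10 measured of those in the table) summed to 1099 to 1340 in CCD EVs, 1562 to 2620 in old and 1169 to 5280 in young. Their part in the values above was not tested.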

How the data were processed

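Paired-end reads of 150 bp were made from polyadenylated RNA of prefrontal cortex and from ribosome-depleted total RNA of plasma EVs, per the labels' protocols. STAR and DESeq2 are named, without versions, in the submitters' processing notes. No source used here gives the build, annotation, read counter or strand setting, and reads of a gene and an antisense partner may not be told apart. The deposited values, called normalised counts by the authors, are a signal in which each library's reads were divided by a factor of its own. Values divided by the smallest step came out whole (tolerance 0.01) for every gene in every library. In cortex_353 that step was near 1 (1.008). Genes and transposable element families together summed to 23009609 in every cortex library and to 35344491 in every EV library. The values are thus scaled to total reads, those on the families included. For CCD against old in EVs the median log2 fold change over all genes, -0.27 on these values, was -0.03 with DESeq2 and -0.02 with edgeR.

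Whole reads were recovered from these steps for the depth, edgeR and DESeq2. Genes were matched by symbol, and 822 transposable element families were left out of the tests. Within each tissue, log2(normalised count + 1) of genes with a mean of at least 10 was fitted by limma 3.58.1 (R 4.3.3) over the 3 groups with a trended variance, with Benjamini-Hochberg adjustment over all tested genes at 0.05. Fold changes of low genes depend on the added 1 on this scale, and they are not always understated. For PTGS2 in cortex, which had counts of 0 in CCD, the change for CCD against old was larger in size with limma than with edgeR or DESeq2. It was also larger than with a pseudocount of 5. The 10 genes and the pathway and marker lists were chosen with earlier results of these data known. The rule for pathway genes was the 2 with the smallest p in each list and comparison, not all of which are reported here. Genes with levels most like INHBA, NPTX2 and HOMER1 were the 3 with the highest Pearson's r, leaving out symbols that begin with LOC. Alternatives were edgeR 4.0.16, DESeq2 1.42.0, other scalings, a pseudocount of 5, a minimum mean of 50, the compared groups alone, library weights, and leaving out libraries. The limma step was tested on simulated data. A count of 0 allows 3 reads, and limits of this kind cover counting error only.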

Additional observations from a re-analysis of the deposited data

How the results depend on the processing

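No paired analysis was possible because the groups compared within a tissue share no library numbers. In cortex, where limma called 0 of the 10 genes, counts past the threshold are given with the share of all genes and are no evidence about the 10, whose cortex values chose them. Leaving out cortex_353, cortex_377 and cortex_358, an alternative that leaves 1 young and 2 CCD libraries, makes the young library count as varying like the other groups. For CCD against old the count was 2 with the compared groups alone (9.35% of all genes), 2 with library weights (8.58%), 4 without those 3 libraries (15.4%) and 0 to 1 with single libraries left out (0% to 3.90%). For old against young it was 2 with DESeq2 (1.14%), 1 without those 3 libraries (3.25%) and 0 to 1 with single libraries left out (0% to 0.216%). For CCD against young it was 3 with DESeq2 (1.09%) and 3 without those 3 libraries (3.403%). Over all genes DESeq2 called 160, 216 and 208 for CCD against old, old against young and CCD against young, and limma with the compared groups alone 1778 for CCD against old, where limma over 3 groups and edgeR called 0. Counts of genes without overlap under other settings were chosen after seeing the data, and fewer libraries overlap less by construction. Without those 3 libraries they numbered 9 for CCD against old (49.2% of all genes) and 6 for old against young (70.5%). With single libraries left out they numbered 5 to 9 (38.9% to 49.2%) and 2 to 4 (17.1% to 38.0%). In EVs they numbered 0 to 2 for CCD against old (7.55% to 11.7%) and 0 to 1 for old against young (1.60% to 5.80%) with single libraries left out. The genes with a negative change for old against young in EVs were 3 when scaled to gene reads and 1 to 7 with single libraries left out.

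Signs also turned in cortex, not only those near 0. For NPTXR the log2 fold change for CCD against young, -1.01 over all libraries, was 0.06 without cortex_353, cortex_377 and cortex_358. With single libraries left out, the log2 fold change for old against young ran from -0.43 to 0.71 for NPTXR, from -0.10 to 0.37 for BDNF, from -0.13 to 0.27 for SCG2 and from -0.23 to 0.063 for NRN1, and for CCD against young from -0.44 to 0.11 for NPTX1. Signs near 0 in EVs turned with scaling. For CCD against old, INHBA was 0.22 with quantile normalisation, 0.015 with library weights, 0.23 with edgeR and 0.22 with DESeq2, and HOMER1 was -0.015 scaled to gene reads and -0.013 with library weights. For old against young, HOMER1 was -0.063 with quantile normalisation, -0.098 with edgeR and -0.087 with DESeq2, NPTX2 was -0.13 with library weights, -0.051 with edgeR and -0.045 with DESeq2, and NPTX1 was 0.0070 and VGF 0.055 scaled to gene reads. For CCD against young, INHBA was 0.079 with quantile normalisation, 0.015 with edgeR and 0.015 with DESeq2, and PTGS2 was -0.027 with library weights. With single libraries left out, HOMER1 ran from -0.092 to 0.15 and INHBA from -0.16 to 0.059 for CCD against old. For old against young BDNF ran from -0.18 to 0.060, HOMER1 from -0.058 to 0.055, INHBA from -0.22 to 0.058, NPTX1 from -0.22 to 0.053, NPTX2 from -0.098 to 0.24, NRN1 from -0.34 to 0.086 and VGF from -0.26 to 0.16. For CCD against young HOMER1 ran from -0.081 to 0.16, INHBA from -0.27 to 0.0027, PTGS2 from -0.15 to 0.44 and SCG2 from -0.12 to 0.45. The cause of these turns was not tested. Depth limits PTGS2 in cortex, with 0 to 55 reads a library, and the number of libraries limits every comparison.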
